A study of Homo sapiens with 32 samples.

Results

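The regions of chromosome 3 on which U-DNA-Seq found uracil enriched were compared between HCT116 cells, which are deficient in mismatch repair, and the HCT116+ch3 sub-line, a mismatch repair proficient derivative with an added chromosome 3. U-DNA-Seq pulls down sonicated genomic DNA with a catalytically inactive uracil-DNA glycosylase and sequences it beside its input. Members were all regions placed on chromosome 3 in the 15 region files of single libraries, 147240 of 2015148 regions in all. A library held between 5795 (RTX_UGI, replicate 2) and 15117 (5FdUR_UGI_MMR, replicate 2) of them.

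HCT116 is a colorectal carcinoma line, and its cells served as the mismatch repair (MMR) deficient side. The HCT116+ch3 cells served as the MMR proficient side, labelled MMR. Cells of both kinds carried UGI, a protein inhibitor of the main uracil-DNA glycosylase UNG. The paper describes stable lines of both kinds, made by retrovirus with EGFP and sorted for green fluorescence, and also transient transfection of HCT116. Which delivery each library had was not known here. Cells of both kinds received 20 µM 5-fluoro-2'-deoxyuridine (5FdUR_UGI and 5FdUR_UGI_MMR) or 100 nM raltitrexed (RTX_UGI and RTX_UGI_MMR) for 48 h, or no drug (NT_UGI and NT_UGI_MMR). WT was HCT116 with neither UGI nor drug, and it had no MMR proficient counterpart. Each of these 7 groups had 2 libraries from independent biological replicates, and 1 library came from non-treated K562 leukaemia cells. Each MMR state was 1 line, so the added chromosome, the repair state and the separate history of the sub-line cannot be told apart. The paper names 2 sequencing providers with different platforms and read lengths. Which library went to which was not known here, so a sequencing batch could not be tested or told apart from MMR state. Regions do not say from which copy of chromosome 3 a read came.

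Uracil enters DNA when dUTP is used in place of dTTP or when cytosine loses its amino group. UNG removes it and starts base excision repair. Both drugs block thymidylate synthase, 5FdUR through its phosphorylated form and raltitrexed as a folate analogue, so that the supply of dTTP fails. The paper states that 5FdUR is also built into DNA itself and that U-DNA-Seq picks up fluorouracil too. Regions under 5FdUR can therefore hold either base. Mismatch repair corrects mispaired bases after replication. The short arm of chromosome 3 carries a gene-dense, GC-rich block of tumour suppressor genes at 3p21 and the FRA3B fragile site inside FHIT. The long arm carries PIK3CA and MECOM, which are often amplified in carcinomas.

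Examples of the underlying sequence are shown first, because base composition differed between the kinds of region. Each line gives the central 200 bases of a stretch on the plus strand of GRCh38, with CG dinucleotides in capitals. The first is from the longest stretch shared by all 8 drug-treated HCT116 libraries (chr3:14632901-14648900, 16000 bp, 46.1% GC), where the printed bases lie in an exon of the long non-coding RNA gene ENSG00000283392. The second is from the longest stretch shared by all 6 non-treated HCT116 libraries (chr3:85232101-85252800, 20700 bp, 30.4% GC), in an intron of CADM2. The last pair were chosen after values were seen. They come from the longest stretch in both 5FdUR_UGI_MMR and in neither 5FdUR_UGI library (chr3:71997801-72019800, 44.6% GC) and from the longest with the opposite pattern (chr3:195859601-195881700, 60.02% GC). Their printed bases lie in introns of LINC00877 and of TNK2, while the whole stretches also hold exons, of UBE2Q2P9 in the former and of TNK2 and LINC01983 in the latter.
In all drug-treated libraries, chr3:14640801-14641000: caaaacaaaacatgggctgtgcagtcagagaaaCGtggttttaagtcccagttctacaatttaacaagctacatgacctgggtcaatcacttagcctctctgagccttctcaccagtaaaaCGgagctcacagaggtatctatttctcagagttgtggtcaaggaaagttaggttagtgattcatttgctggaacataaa
In all non-treated libraries, chr3:85242351-85242550: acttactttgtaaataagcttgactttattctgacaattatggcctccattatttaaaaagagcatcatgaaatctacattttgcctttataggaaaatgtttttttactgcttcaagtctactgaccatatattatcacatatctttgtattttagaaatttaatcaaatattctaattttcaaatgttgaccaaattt
5FdUR, MMR proficient libraries alone, chr3:72008701-72008900: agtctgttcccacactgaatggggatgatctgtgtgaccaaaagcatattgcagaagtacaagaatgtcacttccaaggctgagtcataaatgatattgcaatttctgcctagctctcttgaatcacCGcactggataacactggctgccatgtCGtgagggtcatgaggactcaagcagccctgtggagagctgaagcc
5FdUR, MMR deficient libraries alone, chr3:195870551-195870750: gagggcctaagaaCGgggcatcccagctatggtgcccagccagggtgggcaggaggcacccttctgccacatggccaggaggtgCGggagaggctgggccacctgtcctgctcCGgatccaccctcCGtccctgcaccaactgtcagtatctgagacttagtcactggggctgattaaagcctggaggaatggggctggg
The printed stretches held 42.0%, 25.5%, 48.0% and 63.5% GC in that order. Their CG dinucleotides numbered 2, 0, 2 and 4. Over all of chromosome 3, which is 39.7% GC, there were 8.45 CG dinucleotides per kb, against 4.20 in the non-treated and 37.0 in the TNK2 stretch.

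The measure used throughout is the covered share, the percentage of the known bases of a chromosome, of a 1 Mb bin or of a gene body that lay inside regions. The authors chose the log2 threshold of each file so that total lengths within a condition came out about equal. Depth is unknown from the region files. The lowest log2 value on chromosome 3 lay between 0.13 (5FdUR_UGI_MMR, replicate 2) and 0.33 (WT, replicate 1, and K562), so the share also moves with that choice. The 2 replicates of 5FdUR_UGI had lowest values of 0.25 and 0.14, and those of 5FdUR_UGI_MMR 0.20 and 0.13. No pair of libraries held identical regions on this chromosome.

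The whole chromosome had a larger covered share in MMR proficient than in MMR deficient cells under each treatment. Without drug it was 13.2% and 13.2% in the NT_UGI libraries and 14.1% and 14.5% in the NT_UGI_MMR libraries, with WT at 13.8% and 13.5%. Under 5FdUR it was 15.96% and 14.9996% in 5FdUR_UGI and 16.4% and 17.6% in 5FdUR_UGI_MMR. Under raltitrexed it was 16.4% and 17.9% in RTX_UGI and 20.4% and 19.6% in RTX_UGI_MMR. Within each treatment the MMR groups did not overlap. The thresholds were set to give replicates about equal total length, so the spread between replicates is not biological variation alone. This limit holds for the test below as well. The differences were 1.08, 1.52 and 2.90 percentage points in the same order, 1.83 on average. That average gave p = 0.00926 in a two-sided exact permutation test of the MMR label within treatments, the smallest that its 216 arrangements allow, and 0.0799 after Benjamini-Hochberg adjustment over 23 chromosomes. Among the 23 chromosomes, chromosome 3 had the largest difference without drug, the second largest with raltitrexed and ranked 9 with 5FdUR.

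On the other autosomes the mean covered share was not higher in MMR proficient cells. It was 9.96% and 10.1% in NT_UGI and 9.88% and 10.1% in NT_UGI_MMR. In the 5FdUR_UGI libraries it was 18.8% and 18.1%, and in 5FdUR_UGI_MMR 17.99% and 17.3%. In RTX_UGI it was 19.4% and 21.4%, and in RTX_UGI_MMR 18.02% and 19.4%. On the log2 scale, the covered share of chromosome 3 relative to the other autosomes was higher in MMR proficient cells by 0.12 without drug, 0.20 with 5FdUR and 0.35 with raltitrexed, on average by 0.22 (two-sided exact permutation p = 0.00926, adjusted 0.0799). Against the share that its GC content predicts from other autosomes, the differences were 0.11, -0.10 and 0.14 on the log2 scale, with an adjusted p of 0.524. With regions kept only at a log2 value of 0.34 or more in every library, the average difference in covered share turned to -0.676 percentage points. That cut lies above the mean log2 value of chromosome 3 region bases in both 5FdUR_UGI_MMR libraries (0.324 and 0.223). At it, both MMR proficient libraries lay above both MMR deficient ones in 2.02% of 1 Mb bins of the chromosome under 5FdUR (beside 1.87% of all bins). This was 31.8% (19.9%) under raltitrexed and 20.7% (8.88%) without drug. Both lay below in 22.2% (23.7%), 6.57% (16.0%) and 6.57% (9.02%).

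**Figure D1:**
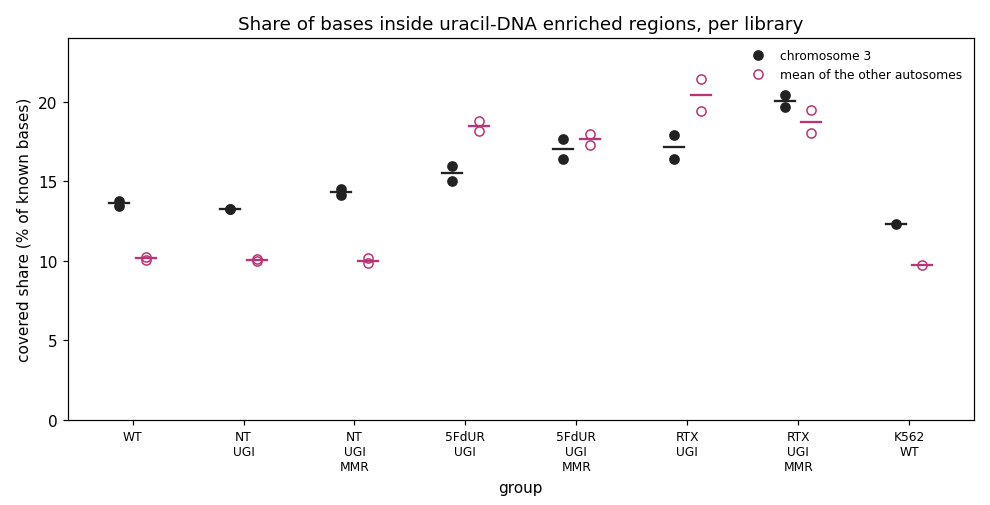
Covered share in percent (y axis) of chromosome 3 (filled points) and mean of the other autosomes (open points) in each library, by group (x axis), with short lines at group means. Chromosome 3 sits above the other autosomes in all 6 non-treated HCT116 libraries and in K562, and the RTX_UGI_MMR libraries at 20.4% and 19.6% are the highest for this chromosome.

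Region height and length were compared in the same way. The mean log2 value of chromosome 3 region bases, set against that of other autosomes, was higher in MMR proficient cells by 0.0088 without drug and 0.018 with raltitrexed and lower by 0.0023 with 5FdUR. The average of 0.0082 gave an adjusted exact permutation p of 0.243. The N50, the region length above which the longer regions hold 50% of all covered bases, was 21400 and 8000 bp in 5FdUR_UGI against 6700 and 5500 bp in 5FdUR_UGI_MMR. It was 16500 and 26800 bp in RTX_UGI against 13100 and 18600 bp in RTX_UGI_MMR, where the groups overlapped. Without drug it lay between 4900 and 5300 bp in all 4 libraries, and the MMR difference averaged over treatments gave an adjusted exact permutation p of 0.13.

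Without drug, the difference sat on the short arm. The covered share of the short arm was 11.7% and 11.4% in NT_UGI, 12.3% and 11.9% in WT, and 13.5% and 14.1% in NT_UGI_MMR. On the long arm it was 14.8% and 15.1% in NT_UGI, 15.3% and 15.1% in WT, and 14.9% and 15.1% in NT_UGI_MMR. The difference was thus 2.25 percentage points on the short arm and 0.073 on the long arm. The arms were split at the longest stretch without a region in any library, the centromeric gap from 91.5 to 93.7 Mb, after values were seen, and the difference between arms was not tested because 2 against 2 libraries cannot go below an exact p of 0.333. Under the drugs both arms took part. The difference was 1.86 and 1.25 percentage points on the short and long arm with 5FdUR, and 2.12 and 3.63 with raltitrexed.

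The plot of covered share along the chromosome shows the same in 1 Mb bins, of which 198 were tested. In 55 bins (27.8%) both NT_UGI_MMR libraries lay above both NT_UGI libraries, beside 13.8% of all 2903 bins of the genome, and in 19 bins (9.60%) both lay below, beside 13.4%. Chromosome 3 had the largest percentage of higher bins of all 23 chromosomes, followed by chromosome 12 at 23.5%. With the WT libraries added to the MMR deficient side, 41 bins (20.7%) stood higher, beside 5.89%, and 8 (4.04%) lower, beside 6.65%. Chromosome 12 came next at 15.2%. Of the 55 higher bins, 22 lay between 60 and 100 Mb and 18 between 0 and 40 Mb. None lay beyond 180 Mb.

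The longest run of such bins covered 12 Mb at chr3:74000001-86000000. It is gene-poor, with 7 protein-coding genes and 35.8% GC, and holds the axon guidance receptor genes ROBO1 and ROBO2 and the cell adhesion gene CADM2. The covered share of the whole run was 37.5% and 32.7% in NT_UGI, 37.2% and 37.1% in WT, and 42.7% and 43.7% in NT_UGI_MMR. The NT_UGI_MMR libraries lay above all 4 MMR deficient libraries in each of the 12 bins. In the bin from 80 to 81 Mb the share was 46.5% and 43.9% in NT_UGI, 45.4% and 49.5% in WT, and 57.0% and 58.0% in NT_UGI_MMR. On other chromosomes the longest run was 10 bins against NT_UGI alone and 5 bins against NT_UGI and WT together, both on chromosome 12. Under the drugs these 12 Mb were nearly bare, with 0.081% to 3.78% covered in the 8 drug-treated libraries.

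**Figure D2:**
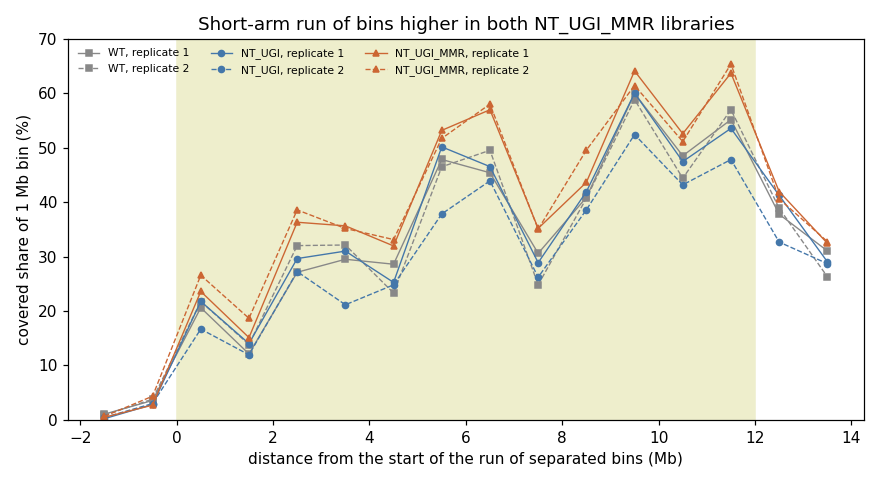
Covered share in percent (y axis) of 1 Mb bins by distance in Mb from the start of the 12 Mb run (x axis, shaded), for each non-treated HCT116 library. Both NT_UGI_MMR libraries (triangles) lie above the 2 NT_UGI (circles) and the 2 WT libraries (squares) in all 12 shaded bins.

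CADM2 shows the pattern within 1 gene. Its body was covered at 53.7% and 47.9% in NT_UGI, 55.3% and 55.9% in WT and 62.8% and 64.1% in NT_UGI_MMR. It was covered at 45.3% in K562 and at 0% to 3.05% in the drug-treated libraries. The stretch shared by all 6 non-treated libraries, printed above, lies within it. ROBO2 had 32.7% and 26.6% in NT_UGI, 29.1% and 33.7% in WT, and 38.9% and 39.5% in NT_UGI_MMR. No bin of chromosome 3 passed an adjusted p of 0.05 in the limma fit over all bins, beside 0% of all bins in either direction, and no gene did. At an unadjusted limma p under 0.05 there were 3 higher and 0 lower of 198 bins, and 13 higher and 1 lower of 992 genes. That fit shares 1 estimate of spread over 6 groups whose replicate spread ranged from 0.0228 (NT_UGI_MMR) to 0.121 (5FdUR_UGI) on its arcsine scale. With libraries weighted by their own spread, 4 of 198 bins passed, all higher, and the share over all bins is not given for that fit. With the 4 non-treated libraries fitted alone 0 bins and 10 genes did. Of 992 tested genes of chromosome 3, 7 were higher and 3 lower, beside 104 and 66 of all 16908 genes.

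**Figure D3:**
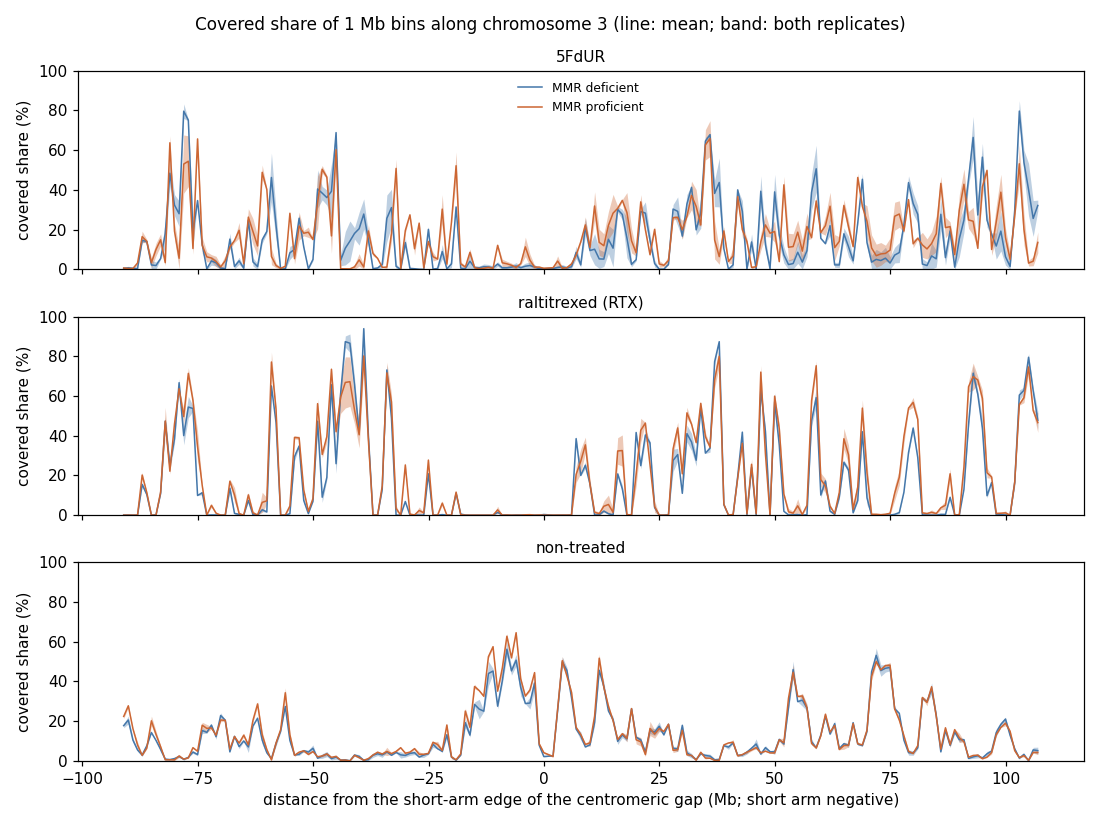
Covered share in percent (y axis) of 1 Mb bins along chromosome 3, by distance in Mb from the short-arm edge of the centromeric gap (x axis, short arm negative), with the mean as a line and both replicates as a band. The non-treated lines part on the short arm within 20 Mb of the gap, a stretch that includes the 12 Mb run, and the 5FdUR lines part in both directions.

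Under 5FdUR, bins moved in both directions. In 77 bins (38.9%, beside 36.7% of all bins) both 5FdUR_UGI_MMR libraries lay above both 5FdUR_UGI libraries, and in 45 (22.7%, beside 25%) both lay below. Of 198 bins 60 rose (30.3%, beside 27.1% of all bins) and 30 fell (15.2%, beside 18.7%) at a limma adjusted p under 0.05. These shares were near those of the genome. On adjustment for GC content the split turned, to 47 higher and 53 lower, and with a replicate block beside it to 52 and 66. The shares over all bins are not given for these adjusted fits. In the fit without that adjustment, the bins that rose had a median of 3 protein-coding genes and 38.7% GC, and those that fell 10.5 genes and 44.3% GC, against 4 genes and 39.1% GC over all bins of the chromosome. Across bins, the MMR difference and GC content had a Pearson's r of -0.48 (n = 198 bins of the same libraries, given as a description).

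The longest run that rose lay at chr3:67000001-73000000 and holds FOXP1, a forkhead transcription factor gene, and TAFA1. It was covered at 6.3% and 8.4% in 5FdUR_UGI and at 19.4% and 20.8% in 5FdUR_UGI_MMR. The next was chr3:28000001-32000000 with RBMS3 and OSBPL10, where the share went from 9.61% and 9.97% to 26.1% and 33.9%. The run at chr3:62000001-66000000 with PTPRG, MAGI1 and CADPS went from 0% and 0.5% to 14.9% and 16.1%. In none of the 3 runs did the groups overlap, but the runs were made of bins called in this same contrast, so this adds no support. The largest single gain was the bin from 59 to 60 Mb, at 0.15% and 2.89% in 5FdUR_UGI and 46.2% and 55.5% in 5FdUR_UGI_MMR (limma adjusted p = 6.1e-05). It covers the lower-coordinate end of FHIT, whose body as a whole was at 0% and 0.12% against 4.37% and 4.46%.

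The longest run that fell was 3p21, chr3:48000001-53000000, with 142 protein-coding genes, among them DOCK3, MAP4 and RBM6. It was covered at 25.7% and 10.8% in 5FdUR_UGI and at 2.8% and 0.4% in 5FdUR_UGI_MMR. The end of the long arm, chr3:194000001-198295559, with DLG1, XXYLT1 and ACAP2, fell from 57.0% and 40.8% to 25.1% and 14.5%. The run at chr3:11000001-14000000 with IQSEC1, ATG7 and VGLL4 fell from 49.4% and 43.99% to 33.9% and 17.99%. All 3 are GC-rich, at 48.0%, 45.4% and 46.5%. The largest single loss was the bin from 184 to 185 Mb, at 77.0% and 55.9% against 31.3% and 17.2% (adjusted p = 0.0039).

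The 5FdUR counts depend on the fit and on the thresholds of the files. With libraries weighted by their own spread 11 bins rose and 11 fell, and the shares over all bins are not given for that fit. With the 4 libraries of this treatment fitted alone 11 of 198 rose and 12 fell, beside 182 and 258 of all 2903 bins. With regions at a log2 value of 0.34 or more 0 bins passed. The highest log2 value of any chromosome 3 region was 0.57 and 0.41 in the 5FdUR_UGI_MMR libraries, against 0.69 and 0.65 in 5FdUR_UGI. The total of 90 bins became 54 without 5FdUR_UGI replicate 1, 138 without 5FdUR_UGI replicate 2 and 47 without 5FdUR_UGI_MMR replicate 2.

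**Figure D4:**
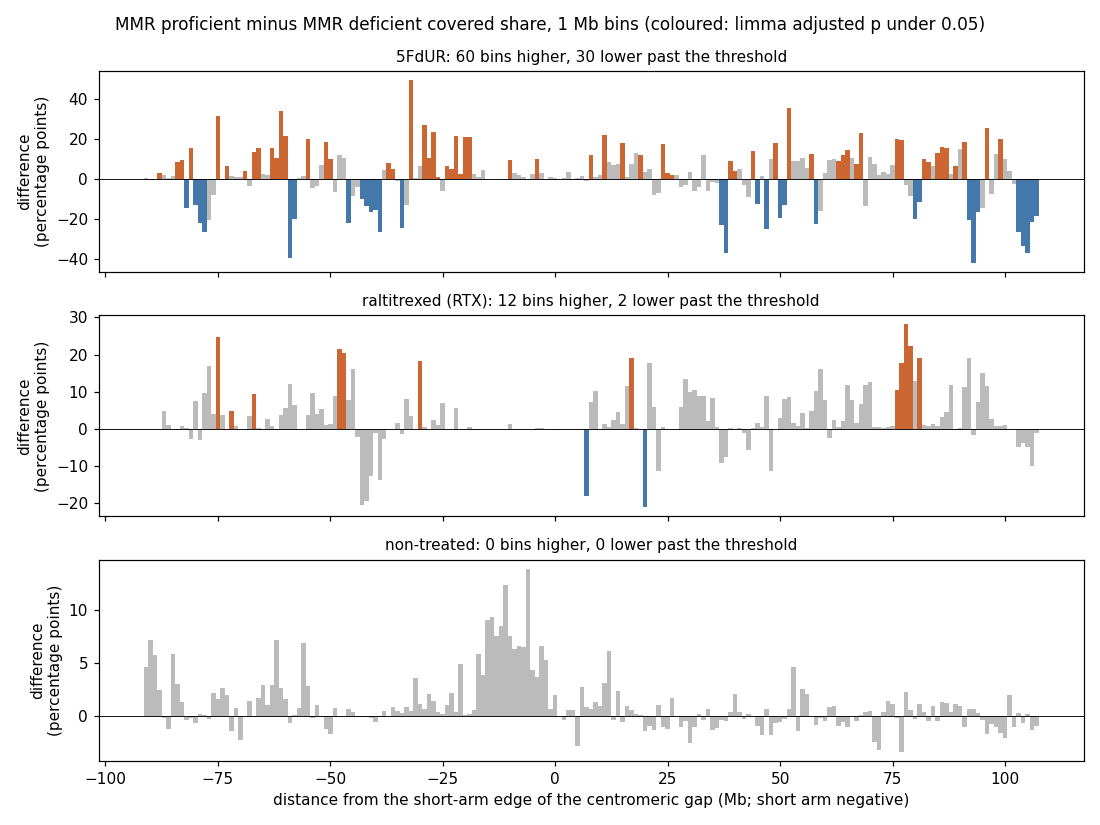
MMR proficient minus MMR deficient covered share in percentage points (y axis) of 1 Mb bins by distance in Mb from the short-arm edge of the centromeric gap (x axis), for 5FdUR, raltitrexed and non-treated cells, with bins past a limma adjusted p of 0.05 in orange (higher) or blue (lower). The 5FdUR panel has 60 and 30 such bins, the raltitrexed panel 12 and 2, and the non-treated panel has none, its largest grey bars lying on the short arm near the gap. The y scales differ between panels.

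Under raltitrexed most differences were gains. In 92 bins (46.5%, beside 29.7% of all bins) both RTX_UGI_MMR libraries lay above both RTX_UGI libraries, and in 20 (10.1%, beside 17.4%) both lay below. Chromosome 3 had the largest percentage of higher bins of the 23 chromosomes, followed by chromosome 4 at 45.8%. At a limma adjusted p under 0.05, 12 bins rose (6.06%, beside 2.76%) and 2 fell (1.01%, beside 1.41%). The longest run of separated bins was 15 Mb at chr3:165000001-180000000, covered at 8.34% and 8.67% in RTX_UGI and at 19.3% and 15.9% in RTX_UGI_MMR. The longest on another chromosome was 14 bins, on chromosome 4.

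The longest run past the limma threshold, chr3:167000001-171000000, lies inside these 15 Mb and holds MECOM, a zinc finger transcription factor gene, and WDR49. It was covered at 11.2% in each RTX_UGI library and at 33.9% and 27.9% in RTX_UGI_MMR. The run at chr3:43000001-45000000 with ANO10 and SNRK went from 12.1% and 16.0% to 37.2% and 32.8%. The bin from 16 to 17 Mb with PLCL2, RFTN1 and OXNAD1 went from 9.83% and 9.95% to 42.2% and 26.9%, and it rose under 5FdUR as well, from 34.2% and 35.1% to 66.6% and 64.8%. The bins that fell were 98 to 99 Mb (DCBLD2, ST3GAL6), from 39.8% and 37.2% to 24.6% and 16.5%, and 111 to 112 Mb (CD96, PHLDB2, NECTIN3), from 41.5% and 41.8% to 26.5% and 14.7%. At 3p21, chr3:48000001-53000000, raltitrexed gave 72.2% and 77.7% in RTX_UGI and 52.5% and 70.5% in RTX_UGI_MMR, lower in both MMR proficient libraries, with no bin of it past the threshold. With either RTX_UGI library left out 0 of the 14 bins passed, with RTX_UGI_MMR replicate 1 left out 2 did, and with any 1 of the 4 non-treated libraries left out 5 did. With either 5FdUR_UGI library left out 28 and 27 passed, and 0 did with the 4 libraries of this treatment fitted alone, where 34 were higher and 9 lower at an unadjusted p under 0.05.

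The MMR difference was tested between treatments in the same fit. In 39 bins it differed between 5FdUR and no drug, 23 with a more positive difference under 5FdUR (11.6%, beside 10.9% of all bins) and 16 with a more negative one (8.08%, beside 7.03%). In 26 bins it differed between 5FdUR and raltitrexed, 13 in each direction (6.57%, beside 8.1% and 5.89%). On adjustment for GC content these became 23 more positive and 37 more negative against no drug, and 26 and 39 against raltitrexed. The counts also turned on single libraries. The 39 became 100 without 5FdUR_UGI replicate 2, 21 without its replicate 1, 16 without either RTX_UGI library, 10 and 3 without replicates 1 and 2 of NT_UGI, 6 and 7 without those of NT_UGI_MMR, and 10 without 5FdUR_UGI_MMR replicate 2. The 26 became 93 without 5FdUR_UGI replicate 2, 57 without 5FdUR_UGI_MMR replicate 1, 1 and 4 without replicates 1 and 2 of RTX_UGI, and 17 and 13 without those of RTX_UGI_MMR. No bin differed between raltitrexed and no drug, beside 0% of all bins in either direction. At an unadjusted p under 0.05 18 were more positive and 3 more negative under raltitrexed, and 29 bins passed with libraries weighted by their own spread. The shares over all bins are not given for these counts. In 25 bins (12.6%, beside 9.47%) the MMR groups did not overlap and lay in opposite directions under 5FdUR and raltitrexed. Of these 22 were lower in MMR proficient cells under 5FdUR and higher under raltitrexed (11.1%, beside 6.65%) and 3 the reverse (1.52%, beside 2.82%), and 12 of the 25 were among the 26 past the threshold. The bin from 32 to 33 Mb, at 58.6% and 33.9% against 10.6% and 2.39% under 5FdUR and at 65.3% and 64.8% against 72.1% and 82.1% under raltitrexed, was 1 of them (adjusted p = 0.0096). Opposite directions were found in 11 bins (5.56%, beside 7.27%) between 5FdUR and no drug and in 12 (6.06%, beside 5.55%) between raltitrexed and no drug. Of the 90 bins past the threshold under 5FdUR, 5 (5.56%) were also past it under raltitrexed, where they made up 35.7% of 14. Of all 198 bins tested, 30.3% rose and 15.2% fell under 5FdUR, and 6.06% rose and 1.01% fell under raltitrexed. The overlap was thus no larger than the shares of bins called. Of these 5, 4 were higher in MMR proficient cells under both drugs. Over the mean of the 3 treatments, 39 bins rose (19.7%, beside 12.8%) and 10 fell (5.05%, beside 9.65%). In 5 bins (2.53%, beside 2.1%) both MMR proficient libraries lay above both MMR deficient ones under every treatment, and in 1 bin (0.505%, beside 1.41%) below.

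Gene bodies were tested across 16908 protein-coding genes of at least 5 kb, 992 of them on chromosome 3. Under 5FdUR 103 of these rose (10.4%, beside 9.16% of all genes) and 139 fell (14.01%, beside 18.2%). Under raltitrexed 40 rose (4.03%, beside 1.83%) and 25 fell (2.52%, beside 5.88%). Without drug there were 0, beside 0.0177% and 0.0118%. Over the mean of treatments 70 rose (7.06%, beside 3.93%) and 57 fell (5.75%, beside 10.7%). The MMR difference was more positive under 5FdUR than without drug in 21 genes (2.12%, beside 2.39%) and more negative in 27 (2.72%, beside 4.45%). Against raltitrexed it was more positive in 23 (2.32%, beside 3.2%) and more negative in 35 (3.53%, beside 3.06%). Between raltitrexed and no drug 3 were more positive (0.302%, beside 0.118%) and 5 more negative (0.504%, beside 1.01%). On adjustment for GC content the split under 5FdUR turned to 126 higher and 100 lower. Overlapping and neighbouring genes share the same broad regions and are not independent. These calls rest on the spread shared by all 12 libraries: with the 4 libraries of a treatment fitted alone, 0 genes passed under either drug, with 86 higher and 115 lower at an unadjusted p under 0.05 under 5FdUR and 116 and 56 under raltitrexed. Without 5FdUR_UGI replicate 2 the 5FdUR total of 242 became 420, and without replicate 1 of that group or replicate 2 of 5FdUR_UGI_MMR it became 139 and 132.

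Among 20 tested DNA repair and replication genes (TREX1 was too short), 1 rose and 0 fell under 5FdUR (5% and 0%, beside 9.16% and 18.2% of all genes), and 0 rose and 1 fell under raltitrexed (0% and 5%, beside 1.83% and 5.88%). XPC, which recognises damage in nucleotide excision repair, was at 0% and 30.7% in 5FdUR_UGI and at 88.7% and 67.6% in 5FdUR_UGI_MMR (adjusted p = 0.012). Under raltitrexed it was at 1.19% and 0% against 19.3% and 38.7% (adjusted p = 0.12). BAP1, a deubiquitinase and tumour suppressor, was fully covered in both RTX_UGI libraries and at 74.7% and 80.2% in RTX_UGI_MMR (adjusted p = 0.0082). PARP3 and HLTF had large differences that did not pass. PARP3 had 100% and 0% in 5FdUR_UGI against 12.1% and 0% in 5FdUR_UGI_MMR, so its replicates were far apart. HLTF had 0% and 0.18% in RTX_UGI against 40.7% and 37.2% in RTX_UGI_MMR (adjusted p = 0.089). The median difference of the list was -5.56 percentage points under 5FdUR and 0.72 under raltitrexed, beside -0.93 and 0.65 over the chromosome and -3.53 and 0 over all genes.

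Of 16 genes of the 3p21.3 tumour suppressor cluster 12 were long enough to be tested. Under 5FdUR 2 fell (16.7%, beside 18.2% of all genes) and under raltitrexed 3 (25%, beside 5.88%), and none rose under either drug. CACNA2D2, a calcium channel subunit gene, was at 44.04% and 49.1% in 5FdUR_UGI and at 12.7% and 0% in 5FdUR_UGI_MMR (adjusted p = 0.019). SEMA3F, a secreted semaphorin gene, was at 7.62% and 31.96% against 0% and 0% (adjusted p = 0.030), a call that ended, with the sign turned, on adjustment for GC content, and under raltitrexed at 100% and 100% against 69.2% and 85.9% (adjusted p = 0.048). CYB561D2 went from 79.2% and 100% to 18.2% and 33.8% under raltitrexed (adjusted p = 0.011), and TUSC2 from 51.8% and 85.5% to 0% and 20.5% (adjusted p = 0.022). The raltitrexed calls of SEMA3F and TUSC2 were lost in 14 and 12 of 21 alternatives, and that of CYB561D2 in 4. RASSF1, the best known of the cluster, was at 71.7% and 65.5% against 34.5% and 53.1% under raltitrexed (adjusted p = 0.083) and at 0% in all 5FdUR libraries. The median difference was -3.50 and -25.8 percentage points under 5FdUR and raltitrexed, beside -0.93 and 0.65 over all tested genes of the chromosome and -3.53 and 0 over all genes.

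Chemokine receptor genes lie in 2 groups on the short arm, and 8 of the 10 listed here were tested. Under 5FdUR 3 rose and 0 fell (37.5% and 0%, beside 9.16% and 18.2% of all genes), and under raltitrexed 1 rose and 0 fell (12.5% and 0%, beside 1.83% and 5.88%). CX3CR1, the fractalkine receptor gene, was at 0% and 16.3% against 64.1% and 58.7% under 5FdUR (adjusted p = 0.0085) and at 11.4% and 0.54% against 56.0% and 46.2% under raltitrexed (adjusted p = 0.039). CCR1 and CCR2, neighbouring genes, were fully covered in both 5FdUR_UGI_MMR libraries. CCR2 was at 73.6% and 72.2% in 5FdUR_UGI (adjusted p = 0.014) and CCR1 at 38.8% and 80.6% (adjusted p = 0.043). Under 5FdUR XCR1 had the largest negative difference of the list, at 89.3% and 78.0% against 69.9% and 63.5% (adjusted p = 0.32). The median difference was 14.9 percentage points under 5FdUR and 8.90 under raltitrexed, beside -0.93 and 0.65 over the chromosome and -3.53 and 0 over all genes. The CX3CR1 call under raltitrexed was lost in 16 of 21 alternatives and the CCR1 call in 15.

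Of 22 long genes of adhesion, axon guidance and fragile sites, all tested, 6 rose under 5FdUR (27.3%, beside 9.16% of all genes) and none fell (beside 18.2%). SLC9A9, an endosomal sodium/proton exchanger gene, went from 1.20% and 4.22% to 37.3% and 44.5% (adjusted p = 0.0017). PRICKLE2, a planar cell polarity gene, went from 0% and 0% to 31.98% and 24.8% (adjusted p = 0.00081), and CLSTN2, a calsyntenin gene, from 0% and 0.62% to 23.6% and 23.7% (adjusted p = 0.00096). FHIT (adjusted p = 0.022), CACNA2D3 and SYNPR rose by 4.35, 6.78 and 8.30 percentage points. For SLC9A9, PRICKLE2 and CLSTN2 the MMR difference under 5FdUR also differed from that without drug (adjusted p = 0.029, 0.0095 and 0.013) and from that under raltitrexed (0.036, 0.016 and 0.011). Under raltitrexed no member passed, beside 1.83% and 5.88% of all genes, and the largest difference was ZBTB20 at 20.2% and 19.1% against 5.34% and 1.04% (adjusted p = 0.051). The median difference was 2.66 percentage points under 5FdUR and 0 under raltitrexed, beside -0.93 and 0.65 over the chromosome and -3.53 and 0 over all genes. Without drug it was 1.996, beside 0 over all tested genes of the chromosome, with CADM2 and ROBO2 at the top and no member past the threshold.

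In the distal long arm, 16 of 17 cancer genes were tested, of which 0 rose and 1 fell under 5FdUR (0% and 6.25%, beside 9.16% and 18.2% of all genes) and 2 rose and 0 fell under raltitrexed (12.5% and 0%, beside 1.83% and 5.88%). MUC4, a membrane mucin gene, fell under 5FdUR from 87.0% and 92.8% to 53.6% and 2.60% (adjusted p = 0.023), with the MMR proficient replicates far apart. PIK3CA, the catalytic subunit gene of a phosphoinositide kinase, rose under raltitrexed from 12.8% and 8.26% to 52.7% and 51.0% (adjusted p = 0.044). It was at 5.00% and 20.1% against 20.0% and 38.2% under 5FdUR and at 24.6% and 15.7% against 30.4% and 32.6% without drug, neither past the threshold. MECOM rose under raltitrexed from 0% and 0% to 12.2% and 5.96% (adjusted p = 0.026). The PIK3CA and MECOM calls were lost in 12 and 11 of 21 alternatives. TNFSF10, which encodes the death ligand TRAIL, had a difference as large as that of PIK3CA but was at 85.0% and 30.6% in RTX_UGI against 100% and 96.7% (adjusted p = 0.31). The median difference was -4.55 percentage points under 5FdUR and 7.86 under raltitrexed, beside -0.93 and 0.65 over the chromosome and -3.53 and 0 over all genes.

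Among 11 tested genes of WNT, TGF-beta and other colorectal cancer pathways, 3 rose and 0 fell under 5FdUR (27.3% and 0%, beside 9.16% and 18.2% of all genes), and 1 rose and 1 fell under raltitrexed (9.09% each, beside 1.83% and 5.88%). TGFBR2, the type II TGF-beta receptor gene, went from 0.68% and 11.5% to 42.8% and 43.9% under 5FdUR (adjusted p = 0.0052). ACVR2B, an activin receptor gene, was at 0% in all MMR deficient drug-treated libraries and rose under both drugs, to 2.03% and 2.79% under 5FdUR (adjusted p = 0.034) and to 6.60% and 9.64% under raltitrexed (adjusted p = 0.0081). FOXP1 is the remaining gene that rose under 5FdUR. VHL, which marks hypoxia inducible factors for breakdown, fell under raltitrexed from 49.2% and 45.0% to 10.8% and 3.33% (adjusted p = 0.0032). CTNNB1, the beta-catenin gene, did not pass, at 0% and 2.90% against 17.6% and 8.10% under 5FdUR (adjusted p = 0.064). The median difference was 2.41 percentage points under 5FdUR and 0.17 under raltitrexed, beside -0.93 and 0.65 over the chromosome and -3.53 and 0 over all genes.

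**Figure D5:**
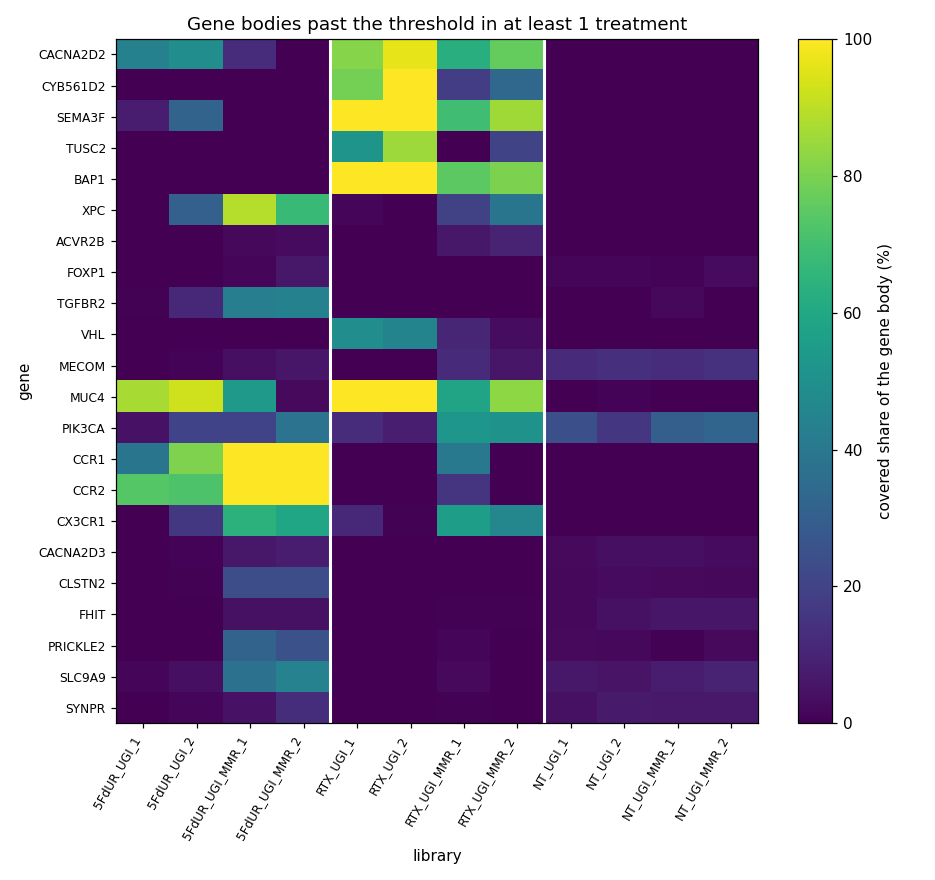
Covered share of the gene body in percent (colour) for the list genes past a limma adjusted p of 0.05 in at least 1 treatment (rows), in the 12 UGI-expressing libraries (columns, white lines between treatments). SEMA3F and BAP1 are at 100% in both RTX_UGI libraries and at 0% in all 4 non-treated libraries.

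Drug-treated and non-treated libraries differed in which bases of the chromosome they covered. The covered share was 17.4% ± 1.86 (SD, n = 8) in drug-treated and 13.7% ± 0.51 (SD, n = 6) in non-treated HCT116 libraries. Relative to the other autosomes it fell by 0.56 on the log2 scale, from 0.45 to -0.12 (two-sided exact permutation p = 0.00033, adjusted 0.00077), and the groups did not overlap. Against the share predicted from GC content the sign turned, to 0.24 higher in drug-treated libraries (adjusted p = 0.015). Region bases of chromosome 3 were 43.4% ± 1.23 GC in drug-treated and 33.7% ± 0.13 GC in non-treated libraries (exact permutation p = 0.00033, adjusted 0.00033). That is the smallest p that 3003 arrangements allow, and with an equal adjusted value all 23 chromosomes reached it. Counted from the most positive difference, chromosome 3 ranked 18 of 23 in GC content and 17 of 23 in relative share. The change in GC content was thus not particular to this chromosome. Within the drug-treated groups GC was lower in MMR proficient cells, at 43.9% and 41.2% against 45.0% and 44.5% under 5FdUR, and at 42.2% and 43.2% against 43.4% and 43.8% under raltitrexed. It was 33.7% and 33.8% against 33.5% and 33.9% without drug. The average MMR difference of -1.03 percentage points gave an adjusted exact permutation p of 0.071.

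Overlap between libraries was measured as the Jaccard index, the bases in both divided by the bases in either. On chromosome 3 it was 0.43 and 0.28 between the replicates of 5FdUR_UGI and of 5FdUR_UGI_MMR, against 0.17 to 0.28 between libraries of different MMR state. Under raltitrexed it was 0.60 and 0.56 between replicates and 0.48 to 0.57 across MMR states. Without drug it was 0.37 and 0.41 between replicates and 0.35 to 0.44 across MMR states. Under each treatment the highest value across MMR states exceeded the lower replicate value, so the ranges overlapped. Under 5FdUR the margin was narrow (0.2811 against 0.2809). Drug-treated and non-treated libraries overlapped by 0.025 on average (0.0072 to 0.049 over 48 pairs).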

How the data were processed

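The authors aligned reads to GRCh38 with BWA 0.7.17-r1194, removed duplicates, ambiguous reads and blacklisted segments, and computed genome-scaled coverage in windows of 100 bp smoothed over 5000 bp with deepTools 3.2.1. The authors deposited, for each library and for each merged pair, regions above a threshold with 1 log2 value each. That column is unheaded, and it was taken here for the average enrichment over input on the log2 scale. Input, mock and coverage data were not used here, and sequencing depth is unknown from the region files and was not used here.

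Covered shares were computed for 23 chromosomes, for 1 Mb bins with at least 50% known bases and a region in at least 1 library, and for GENCODE 44 protein-coding genes of at least 5 kb. Arcsine square roots of the shares of the 12 UGI-expressing libraries were fitted in limma 3.58.1 (R 4.3.3, lmFit and eBayes with trend) as 6 groups, with Benjamini-Hochberg adjustment over all bins or genes. Adjusted p-values of bins and genes are from that fit. Values per chromosome were tested by two-sided exact permutation. The fit was run on simulated bins with equal spread in all libraries and changes placed in RTX_UGI_MMR only. That simulation does not cover the unequal replicate spread of the 6 groups. Members, gene lists and alternatives were chosen with earlier results of these data known. Named were the 3 longest runs of called bins in each direction with their longest genes, and for 6 gene lists the best known gene and members among the 2 largest differences each way, those that add nothing left out; called members and the runs of separated bins were added after values were seen. Some genes of these lists are not reported here and are in none of the counts by list. Replicate numbers were not taken to pair libraries in the main fit, since nothing but the number links them. Between MMR states the correlation of replicate deviations was 0.57 (5FdUR), 0.50 (RTX) and 0.074 (non-treated). Under the drugs libraries of equal number thus varied together, which the main fit leaves out. A fit with a replicate block is given as an alternative.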

Additional observations from a re-analysis of the deposited data

Results flagged for a closer look

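By the limma test of the difference itself, the MMR difference of 39 chromosome 3 bins differed between 5FdUR and no drug, of which 23 were more positive under 5FdUR (11.6%, beside 10.9% of all bins) and 16 more negative (8.08%, beside 7.03%). It differed in 26 bins between 5FdUR and raltitrexed, 13 in each direction (6.57%, beside 8.1% and 5.89%). These shares lay near those of the genome, and leaving out 1 library moved the counts to between 3 and 100 and between 1 and 93. Between raltitrexed and no drug 0 bins passed in limma, with 18 more positive and 3 more negative at an unadjusted p under 0.05 and 29 past the threshold with libraries weighted by their own spread. For the unadjusted and weighted counts the shares over all bins are not given.

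Bins in which both MMR proficient libraries lay above both MMR deficient ones under one treatment and below them under another overlap with these. There were 25 between 5FdUR and raltitrexed (12.6%, beside 9.47% of all bins), of which 12 passed the test of the difference, 10 of them lower in MMR proficient cells under 5FdUR and higher under raltitrexed. There were 11 between 5FdUR and no drug (5.56%, beside 7.27%), of which 3 passed, and 12 between raltitrexed and no drug (6.06%, beside 5.55%), of which 0 passed. A search for a single library standing apart found none, but it pooled the 6 non-treated and the 8 drug-treated libraries. Differences between groups within those sets can hide a deviant replicate, so the search cannot decide whether any library departs from its replicate. Replicates 1 and 2 of 5FdUR_UGI had an N50 of 21400 and 8000 bp.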

How the results depend on the processing

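Of 167 alternatives that leave out no library, 100 kept the direction and the side of the threshold, or a count within 1.5 times. Counts below are chromosome 3 bins or genes past the limma threshold, in both directions together. The share over all bins or genes under an alternative is not given unless stated. Chromosome 3 had 394 bins of 500 kb and 100 of 2 Mb, against 198 of 1 Mb. Counts in bins of other sizes thus also follow the number of bins, and they were compared as counts and not as shares. GC adjustment turned the split of 5FdUR bins from 60 higher and 30 lower to 47 and 53, that of 5FdUR genes from 103 and 139 to 126 and 100, that of 5FdUR against no drug from 23 and 16 to 23 and 37, and that of 5FdUR against raltitrexed from 13 and 13 to 26 and 39. It moved the split of raltitrexed genes from 40 and 25 to 27 and 10, of bins of the mean from 39 and 10 to 35 and 18 and of genes of the mean from 70 and 57 to 25 and 7. For bins under 5FdUR the count of 90 became 0 with log2 values of at least 0.34, 22 with libraries weighted by their own spread, 23 with the 4 libraries of the treatment fitted alone, 186 in bins of 500 kb and 39 in bins of 2 Mb. For raltitrexed the 14 became 9 without the filter on empty bins, 7 with regions of at least 5 kb, 0 at the log2 threshold, 43 with weights, 0 fitted alone and 5 in bins of 2 Mb. Without drug the 0 became 4 with weights. For the mean of treatments the 49 became 30 with regions of at least 5 kb, 0 at the log2 threshold, 104 in 500 kb bins and 26 in 2 Mb bins. For 5FdUR against no drug the 39 became 60 with GC adjustment, 0 at the log2 threshold, 16 with weights, 88 in 500 kb bins and 11 in 2 Mb bins. For raltitrexed against no drug the 0 became 1 untransformed, 1 with GC adjustment and 29 with weights. For 5FdUR against raltitrexed the 26 became 43 untransformed, 65 with GC adjustment, 0 at the log2 threshold, 9 with weights, 87 in 500 kb bins and 8 in 2 Mb bins.

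For genes under 5FdUR the 242 became 46 at the log2 threshold, 46 with weights and 0 fitted alone. Under raltitrexed the 65 became 103 untransformed, 37 with GC adjustment, 31 with shares divided by the autosomal share and 0 fitted alone. Without drug the 0 became 1 without the filter, 2 with regions of at least 5 kb, 2 at the log2 threshold, 1 with divided shares, 23 with weights and 10 fitted alone. For the mean the 127 became 32 with GC adjustment and 42 at the log2 threshold. Bins whose groups did not overlap went from 122 to 250 (500 kb), 52 (2 Mb) and 48 (log2 threshold) under 5FdUR, from 112 to 176 and 61 under raltitrexed, and from 74 to 146, 30 and, with WT added, 49 without drug. As shares of the bins of 500 kb, 1 Mb and 2 Mb, those higher were 41.4%, 38.9% and 37% under 5FdUR. They were 36.8%, 46.5% and 50% under raltitrexed and 25.9%, 27.8% and 27% without drug. Those lower were 22.1%, 22.7% and 15% under 5FdUR, 7.87%, 10.1% and 11% under raltitrexed, and 11.2%, 9.60% and 3% without drug.

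The samples share only a replicate number, so a replicate block was an alternative. With the block the bin counts became 132 (5FdUR), 28 (raltitrexed), 0 (no drug), 110 (mean), 92 (5FdUR against no drug), 1 (raltitrexed against no drug) and 88 (5FdUR against raltitrexed). With block and GC adjustment they became 118, 28, 0, 67, 75, 2 and 78, and raltitrexed genes became 6 and genes of the mean 0.

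The covered share difference of 1.83 percentage points, averaged over treatments, reversed to -0.676 at the log2 threshold. There, bins with groups that did not overlap were 2.02% higher and 22.2% lower under 5FdUR. They were 31.8% and 6.57% under raltitrexed and 20.7% and 6.57% without drug. Its relative form of 0.22 became 0.15 against the median of the other autosomes, with an adjusted exact permutation p of 0.043. The fall under drugs reversed to 0.24 against the GC-expected share. SEMA3F under 5FdUR reversed to 0.087 on the arcsine scale with GC adjustment, with and without the block.

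Leaving out 1 library at a time gave 47 to 138 (5FdUR), 0 to 28 (raltitrexed), 0 to 0 (no drug) and 13 to 121 bins (mean), 3 to 100 (5FdUR against no drug), 0 to 1 (raltitrexed against no drug) and 1 to 93 (5FdUR against raltitrexed), and 132 to 420, 31 to 136, 0 to 1 and 30 to 322 genes in the first 4 comparisons. The covered share difference stayed between 1.58 and 2.08 percentage points, the relative share between 0.20 and 0.25, GC between -1.47 and -0.58, relative mean log2 between 0.0059 and 0.011, and the drug difference between -0.60 and -0.54. The p-values of these chromosome values are not given, since each omission leaves 1 library in a group. The cause of these changes was not tested. The fits alone, the arm split and the WT addition were chosen after seeing the data.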

Other observations

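K562, a leukaemia line with neither UGI nor drug, resembled the non-treated HCT116 libraries on chromosome 3. Its Jaccard index with them was 0.36 on average (0.33 to 0.39 over 6 pairs), beside 0.39 (0.34 to 0.44 over 15 pairs) among the non-treated HCT116 libraries themselves and 0.025 with the drug-treated ones. Its single library gives no replicate error. The 12 Mb run with ROBO1, ROBO2 and CADM2 was covered at 26.7% in K562, below the 32.7% to 43.7% of all 6 non-treated HCT116 libraries.

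The covered share of 1 Mb bins followed GC content in opposite directions with and without drug. Pearson's r over 198 bins, given as a description of bins of the same library, lay between -0.79 and -0.77 in the 6 non-treated HCT116 libraries and between 0.71 and 0.77 in the 4 raltitrexed libraries. Under 5FdUR it was 0.74 and 0.61 in 5FdUR_UGI and 0.52 and 0.17 in 5FdUR_UGI_MMR. All 8 drug-treated libraries together shared 0.866 Mb of the chromosome (46.5% GC), and the 6 non-treated ones shared 5.98 Mb (31.7% GC).

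Bases in both MMR proficient and in neither MMR deficient library came to 6.01 Mb under 5FdUR, 4.21 Mb under raltitrexed and 2.46 Mb without drug, against 6.71, 1.97 and 1.66 Mb for the reverse.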
